A study of Mus musculus with 20 samples.

Results

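The tip of the mouse digit was compared between embryonic day 17 (E17) and embryonic day 16 (E16) in messenger RNA of the distal phalanx, the end segment that carries the nail field. The 8 libraries, out of 20 in the study, were chosen by their labels. They are the E17 distal phalanges of forelimb digit 1, forelimb digit 2, hindlimb digit 1 and hindlimb digit 2, each a pool of 10 embryos, and the same 4 at E16, each a pool of 20 embryos. The study also sequenced 12 middle and proximal phalanges of the same digits. Strain and genotype are not given in the sources used here, no treatment is named, and 1 library was made per stage, limb and digit. Values listed 4 at a time below follow the order forelimb digit 1, forelimb digit 2, hindlimb digit 1 and hindlimb digit 2.

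As background, the late fetal digit tip holds a surface epithelium, a nail field, dermis, and a cartilage model of the terminal bone that is being replaced by bone from its tip. Epidermal cells leave the basal layer, switch to the keratins of the spinous layer, and end as dead cornified cells sealed by cross-linked proteins and lipids. The nail matrix makes a different product, a hard plate of cysteine-rich hard keratins bound by keratin-associated proteins. Bulk RNA of such a tissue measures all of these cells together, so that fewer cells of a type and less RNA per cell cannot be told apart.

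The 8 libraries held 80247031 to 111204552 counts at E17 and 71233824 to 77361898 at E16, and levels are given as CPM. These are counts scaled to a library of fixed size with library factors, and they compare a gene between libraries and not with other genes. The 10 most counted genes took 8.03% to 10.3% of the counts of each E17 library, against 4.56% to 5.94% at E16. Nail keratins took 0.187% to 1.38% of the counts of the distal libraries at E17 and 0.0735% to 1.08% at E16, whereas in the middle and proximal phalanges they averaged 0.00368% at E17 and 0.00552% at E16 (n = 6 each). Stage is confounded with the pool, its size and the count table, so that these cannot be told apart. Since no combination of stage, limb and digit has a second library, the p-values measure the spread between pools that differ in limb and digit, after terms for both.

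Of 14032 genes tested, 51.6% were called at an adjusted p under 0.05, with 3485 higher (24.8%) and 3760 lower (26.8%) at E17. The larger changes were mostly upward, since 744 genes were at least 2-fold higher (5.3%) and 202 at least 2-fold lower (1.44%). The median log2 fold change over all tested genes was -0.016. In 38.9% of the tested genes the E17 and E16 libraries did not overlap, 18.2% with E17 higher and 20.7% with E17 lower. With this many calls over all genes, a list of genes is read below against these shares, by its counts in each direction and its median. The lists and their members were chosen with earlier results of these data known. Their counts and medians therefore describe the chosen genes and are not independent evidence of a change. In the plot of 28 gene lists, the cornified envelope, skeletal muscle, erythroid and keratin-associated lists lie right of the dashed line, and the cartilage, digit tip and Hedgehog lists lie left of it.

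**Figure D1:**
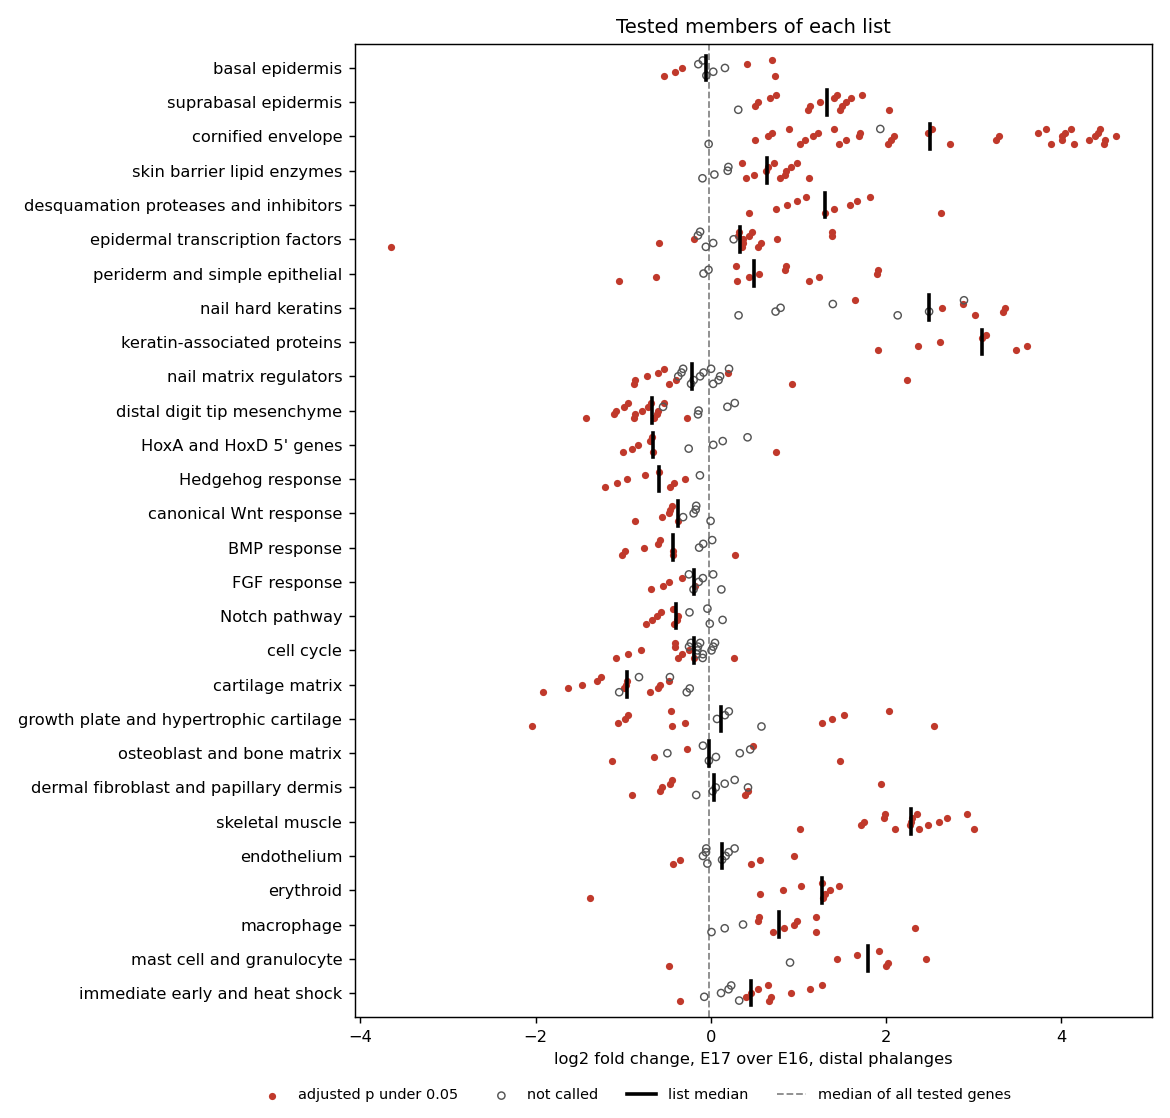
Log2 fold change (E17 over E16, distal phalanges) of every tested member of 28 gene lists; each dot is a gene, red where adjusted p was under 0.05 and open where it was not, the black bar is the list's median and the dashed line is the median of all 14032 tested genes. The medians run from -0.96 for the cartilage matrix to 3.10 for keratin-associated proteins.

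Genes of the outer epidermis rose as a group. Of 38 tested genes of the cornified envelope, 36 rose and 0 fell, with a median of 2.51, and in 24 of them all E17 libraries lay above all E16 libraries. Members such as Flg2 and most Lce1 genes passed the filter only with their E17 libraries, so the filter itself favours rises in this count. Of 16 suprabasal genes 15 rose and 0 fell, with a median of 1.33. All 11 tested desquamation proteases and inhibitors rose, with a median of 1.31, and 12 of 16 barrier lipid enzymes rose, with a median of 0.64. The basal layer did not share this shift. Of 11 basal genes 3 rose and 3 fell, with a median of -0.05.

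Filaggrin, which bundles keratin filaments in cornifying cells, rose more than involucrin and loricrin. Flg had 273, 490.4, 225 and 186 CPM at E17, against 26.6, 64.8, 19.3 and 17.02 CPM at E16. Every E17 library exceeded every E16 library, and the log2 fold change was 3.30 ± 0.25, adjusted p = 2.02e-05. Flg2, a filaggrin relative, moved alike, with 3.01 to 11.2 CPM at E17, against 0.103 to 2.46 CPM at E16 (3.26 ± 0.38, adjusted p = 1.28e-04). Involucrin and loricrin, which are cross-linked into the cornified envelope, changed less. Ivl had 280.1, 261, 149 and 162 CPM at E17, against 101, 132, 34.0 and 53.3 CPM at E16 (1.54 ± 0.15, adjusted p = 5.96e-05), and Lor had 5525, 3337, 3436 and 3271 CPM at E17, against 1117, 1280.4, 1520.1 and 1938 CPM at E16 (1.41 ± 0.21, adjusted p = 4.74e-04). The stages stayed apart for both genes, although the E17 library of forelimb digit 1 lay well above the other E17 libraries for Lor. Hrnr, which encodes the filaggrin-like hornerin, overlapped between stages, with 5189 to 7642 CPM at E17, against 1902 to 5719 CPM at E16 (1.07 ± 0.16, adjusted p = 4.71e-04).

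**Figure D2:**
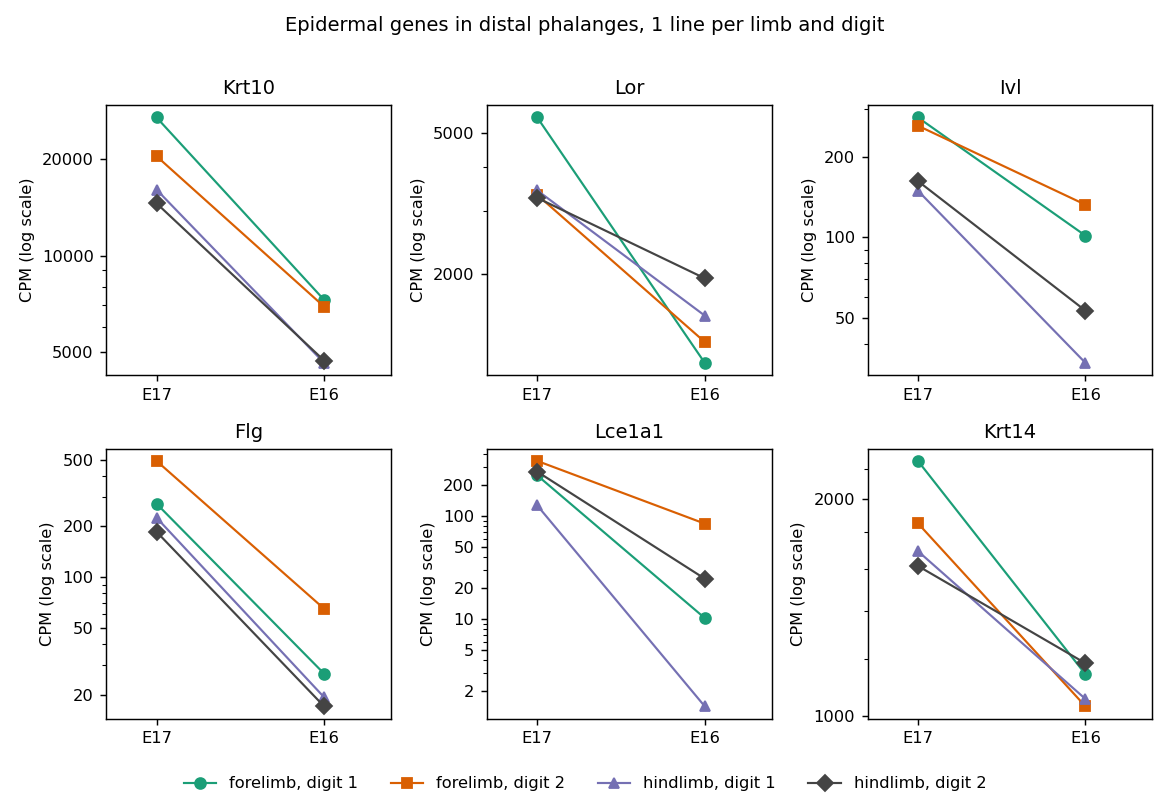
CPM on a log axis of Krt10, Lor, Ivl, Flg, Lce1a1 and Krt14 in the 8 distal libraries, E17 at the left and E16 at the right of each panel; each line joins the 2 libraries of 1 limb and digit. All 4 lines fall from left to right in every panel, with the steepest slopes for Flg (3.30) and Lce1a1 (4.01) and the shallowest for Krt14 (0.74).

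The late cornified envelope genes of the Lce1 family, small proteins added to the envelope from within, made up most of the largest increases. Lce1m had 528, 386, 157 and 286 CPM at E17, against 13.2, 57.1, 2.45 and 13.1 CPM at E16 (4.63 ± 0.45, adjusted p = 6.16e-05). Lce1c (4.51 ± 0.60), Lce1k (4.49 ± 0.56), Lce1i (4.44 ± 0.51), Lce1a2 (4.42 ± 0.57), Lce1b (4.39 ± 0.59), Lce1j (4.31 ± 0.73), Lce1g (4.15 ± 0.51) and Lce1d (4.12 ± 0.63) followed on the log2 scale. Each was higher at E17 in 4 of 4 limb and digit pairs. All of them except Lce1m lay under 1 CPM in the E16 library of hindlimb digit 1. They passed the filter only with their E17 libraries, so their fold changes and p depend on low E16 values. Their coding sequences are close to each other, and how reads were shared among them is not given in the sources used here, so the split between family members is uncertain. In a fit with stage as its only term, the calls of Lce1d and Lce1j were lost (adjusted p = 0.0543 and 0.0688).

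Among the small proline-rich proteins, another class of envelope precursors, Sprr1a had 903, 722, 636 and 579 CPM at E17, against 316, 311, 173 and 237 CPM at E16 (1.47 ± 0.12, adjusted p = 2.44e-05). Sprr3 averaged 121 ± 25.8 CPM at E17 and 32.0 ± 15.6 CPM at E16 (SD, n = 4 each), a log2 fold change of 2.02 ± 0.21. The enzymes of cornification moved by smaller steps. Casp14, the protease that processes filaggrin, had 318, 291, 211 and 194 CPM at E17, against 139, 157, 75.8 and 89.6 CPM at E16 (1.17 ± 0.09, adjusted p = 2.26e-05). Tgm1, a transglutaminase that cross-links the envelope, gained 0.65 ± 0.09 on the log2 scale (adjusted p = 3.10e-04). Of the members that missed the threshold, Rptn had 6.64 to 236 CPM at E17, against 0.998 to 154 CPM at E16, with an adjusted p of 0.0793, and it was called when the limb-and-digit pairs entered the fit as a block (adjusted p = 4.51e-04). Tchh, the trichohyalin of hair and nail epithelia, had 41.1 to 78.9 CPM at E17, against 24.7 to 93.0 CPM at E16 (adjusted p = 0.960), and it was called lower without the forelimb digit 1 pair (-0.58, adjusted p = 0.00743).

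Spinous-layer genes rose with the envelope. Krt10, the type I keratin that marks cells above the basal layer, had 27061, 20474, 16092 and 14584 CPM at E17, against 7279, 6935, 4624 and 4704 CPM at E16 (1.72 ± 0.083, adjusted p = 2.02e-06). Its partner Krt1 had 12749 to 23957 CPM at E17, against 6414 to 9555 CPM at E16 (1.14 ± 0.08, adjusted p = 1.44e-05), and neither gene overlapped between stages. Krt78 (1.498 ± 0.091, adjusted p = 7.22e-06), Dmkn (1.60 ± 0.10, adjusted p = 8.46e-06), Klk8 (1.44 ± 0.097, adjusted p = 1.21e-05) and Sbsn (2.04 ± 0.14, adjusted p = 1.21e-05) also rose. Dmkn and Sbsn encode dermokine and suprabasin, secreted products of differentiating keratinocytes, and Klk8 encodes a kallikrein protease. The desmosomal cadherins of this layer moved less, with Dsc1 at 0.74 ± 0.1 and Dsg1b at 0.54 ± 0.095, and their stages overlapped. The calls of Dsg1b and of Dsg1a (0.51 ± 0.091, adjusted p = 0.00119) were lost in the fit with stage alone (adjusted p = 0.0602 and 0.0737).

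Called genes of the basal list moved both ways, with 3 of 11 higher, 3 lower and 5 not called, near the shares of all genes. The basal keratins rose, Krt14 with 2255, 1849, 1692 and 1614 CPM at E17, against 1143, 1032, 1056 and 1183 CPM at E16 (0.74 ± 0.098, adjusted p = 2.42e-04) and Krt15 with 1087 to 1762 CPM at E17, against 704 to 995 CPM at E16 (0.70 ± 0.084, adjusted p = 1.43e-04). Krt5 rose by 0.41 ± 0.08. Dst and Itgb4, which help to anchor basal cells to the basement membrane, fell. Dst, which encodes a plakin that joins keratin to hemidesmosomes, fell by 0.53 ± 0.073 (adjusted p = 2.91e-04), and Itgb4, which encodes the hemidesmosomal integrin beta subunit, fell by 0.41 ± 0.079 (adjusted p = 0.00178). Trp63, the master transcription factor of stratified epithelia, had 280.0 to 336 CPM at E17, against 269 to 354 CPM at E16, and its difference missed the threshold (0.029 ± 0.063, adjusted p = 0.722).

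The kallikrein proteases that loosen corneodesmosomes rose together with their inhibitors. Klk7 had 326, 408, 247 and 328 CPM at E17, against 77.6, 194, 47.7 and 96.7 CPM at E16 (1.82 ± 0.17, adjusted p = 5.43e-05). Klk5 (1.67 ± 0.15, adjusted p = 3.74e-05), Klk10 (1.41 ± 0.13, adjusted p = 5.18e-05) and the cysteine protease inhibitor Cst6 (1.60 ± 0.10, adjusted p = 1.05e-05) showed no overlap between stages either. Spink6, an inhibitor of kallikreins and 1 of the 12 largest increases among ranked genes, had 1.11, 33.4, 2.15 and 16.7 CPM at E17, against 0, 4.70, 0 and 0.528 CPM at E16 (4.09 ± 0.72, adjusted p = 0.00113), and its call was lost in the fit with stage alone (adjusted p = 0.114). Spink6 passed the filter only with its E17 libraries, so its fold change and p depend on E16 values near the floor. S100a7a, the mouse psoriasin-like S100 protein, had 30.6, 23.5, 29.1 and 21.3 CPM at E17, against 1.83, 2.18, 1.198 and 1.14 CPM at E16 (4.06 ± 0.19, adjusted p = 2.02e-06). The E17 libraries of S100a7a lay above all E16 libraries, and Spink6 was higher in each pair with some overlap between digits.

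Barrier lipid genes gained less than 2-fold for most members. Alox12b, a lipoxygenase that oxidises the linoleate of barrier ceramides, had 589.5, 496, 383 and 384 CPM at E17, against 215, 276, 156 and 208 CPM at E16 (1.12 ± 0.11, adjusted p = 5.38e-05). Aloxe3, which acts on its product, gained 0.99 ± 0.12 (adjusted p = 1.26e-04), the short-chain dehydrogenase Sdr9c7 0.92 ± 0.11 (adjusted p = 1.39e-04), and the acylceramide synthase Pnpla1 0.79 ± 0.068 (adjusted p = 3.55e-05). Abca12, the lipid transporter of lamellar granules, had 301 to 374 CPM at E17, against 231 to 425 CPM at E16, a difference that missed the threshold (0.20 ± 0.10, adjusted p = 0.124) and was called without the E16 library of forelimb digit 2 (adjusted p = 0.00425).

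Periderm is the transient surface layer of fetal skin, and its keratins moved in opposite directions. Krt13 had 2031, 1271, 877 and 689.8 CPM at E17, against 473, 376, 217 and 201 CPM at E16 (1.92 ± 0.091, adjusted p = 2.02e-06), and Krt7 had 1291, 1025, 889.8 and 771 CPM at E17, against 285, 277, 236 and 252 CPM at E16 (1.90 ± 0.093, adjusted p = 2.11e-06). Krt4 had 227, 147, 293 and 162 CPM at E17, against 419, 314, 512 and 431 CPM at E16 (-1.05 ± 0.096, adjusted p = 4.70e-05). All E17 libraries were above all E16 libraries for the first pair of genes and below them for Krt4. Krt6a, a keratin of activated and nail-bed epithelium, gained 0.84 ± 0.083 (adjusted p = 6.21e-05). In all, 10 of 14 genes of this list rose and 2 fell, with a median of 0.50.

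Of 20 tested transcription factors of the epidermis, 12 rose and 3 fell, with a median of 0.34. The largest of these changes was a fall. Cebpb, a bZIP factor of differentiating keratinocytes, had 10.5, 6.86, 8.62 and 8.68 CPM at E17, against 94.2, 92.3, 113 and 138 CPM at E16 (-3.65 ± 0.15, adjusted p = 2.02e-06). The fall of Cebpb was the largest among ranked genes, which were called, averaged at least 5 CPM and bore no predicted-gene symbol. Cebpa, a relative of Cebpb that acts in the same cells, had 173 to 226 CPM at E17, against 196 to 245 CPM at E16 (-0.15 ± 0.099, adjusted p = 0.240), and it was called lower without the E17 library of forelimb digit 1 (adjusted p = 0.0185). The homeobox gene Barx2 had 107, 67.9, 62.4 and 42.6 CPM at E17, against 40.7, 27.6, 29.3 and 12.2 CPM at E16 (1.38 ± 0.11, adjusted p = 2.77e-05), and Hopx, a homeodomain-only protein of late keratinocytes, had 199 to 270.0 CPM at E17, against 68.7 to 99.96 CPM at E16 (1.38 ± 0.13, adjusted p = 4.99e-05). Regulators of terminal differentiation rose by smaller steps, Ovol1 by 0.57 ± 0.068, Prdm1 by 0.54 ± 0.082, Klf4 by 0.48 ± 0.078, Grhl3 by 0.32 ± 0.063 and Zfp750 by 0.31 ± 0.064. Maf fell by 0.59 ± 0.069 (adjusted p = 1.34e-04). The calls of Prdm1 and Maf were lost in the fit with stage alone (adjusted p = 0.0898 and 0.0529).

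The promoters of 4 of these cornification genes are shown because the genes lie near each other on chromosome 3 and rose together, by different amounts. Each is the 200 bases before the annotated start in RefSeq's GRCm38.p6 tables, written along the gene's strand, with capitals marking an AP-1 motif (TGANTCA) or a TATA box (TATAAA), both searched on either strand.
Flg (chr3:93273346-93273545, plus strand): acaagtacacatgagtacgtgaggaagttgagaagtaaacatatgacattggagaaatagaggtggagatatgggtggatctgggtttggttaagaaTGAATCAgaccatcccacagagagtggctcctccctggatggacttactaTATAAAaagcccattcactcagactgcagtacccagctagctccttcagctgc
Ivl (chr3:92573736-92573935, minus strand): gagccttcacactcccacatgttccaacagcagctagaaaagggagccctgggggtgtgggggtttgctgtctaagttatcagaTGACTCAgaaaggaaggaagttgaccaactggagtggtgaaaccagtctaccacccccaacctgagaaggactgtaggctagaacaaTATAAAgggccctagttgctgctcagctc
Lor (chr3:92083143-92083342, minus strand): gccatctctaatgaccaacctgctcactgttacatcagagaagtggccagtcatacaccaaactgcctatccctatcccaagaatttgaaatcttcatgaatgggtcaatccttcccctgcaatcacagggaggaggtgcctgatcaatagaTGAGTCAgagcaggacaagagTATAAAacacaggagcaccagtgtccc
Lce1a1 (chr3:92648308-92648507, minus strand): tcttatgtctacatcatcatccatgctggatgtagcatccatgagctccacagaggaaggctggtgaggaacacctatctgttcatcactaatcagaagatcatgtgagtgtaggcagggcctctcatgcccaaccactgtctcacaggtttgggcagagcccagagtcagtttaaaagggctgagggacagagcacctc
An AP-1 motif lay in 11 of 41 cornified envelope promoters, against 6.36% of all 27025 promoters of that length, and a TATA box in 14 of the 41, against 11.7%. Flg, Ivl and Lor each hold 1 match to both motifs. The Lce1a1 window holds neither of these strings, although its rise of 4.01 ± 0.57 was larger than that of Ivl. A match is a description of letters and not of binding.

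Hard keratins of the nail plate were higher at E17 within each limb and digit, and their levels differed widely among the 4 digit tips. Each of the 13 tested hard keratins was higher at E17 in 4 of 4 limb and digit pairs, with a median log2 fold change of 2.49. The fit with additive limb and digit terms called 6 of the 13 and none lower. When the 4 pairs entered as a block, all 13 were called, with log2 fold changes of 0.32 to 3.37 and adjusted p of 1.10e-05 to 0.00613. All 7 tested keratin-associated proteins rose in both fits, with a median of 3.10, and 28 of the 35 in the tables reached 1 CPM in fewer than 4 of the 8 libraries and were not tested. The tested ones were higher at E17 in 4 of 4 pairs except Krtap11-1, which had no count in forelimb digit 1 at either stage.

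Krt84, a type II hard keratin that appears early in the nail matrix, had 1189, 6460.0, 3696 and 6856 CPM at E17, against 411, 5184, 1885 and 4274 CPM at E16. The forelimb digit 1 tip had the lowest value at either stage, and the stages overlapped across digits although E17 was higher in each pair. Its log2 fold change was 0.80 ± 0.35 (adjusted p = 0.0840, and 0.00121 with the block). Krt85, another type II hard keratin of hair and nail, had 28.2, 1193, 426 and 718 CPM at E17, against 4.21, 682, 124 and 244 CPM at E16 (1.39 ± 0.86, adjusted p = 0.199, and 2.21e-04 with the block). Krt36 had 698, 4479.7, 2444 and 4383 CPM at E17, against 194, 3846, 1316 and 3069 CPM at E16 (0.74 ± 0.43, adjusted p = 0.178, and 0.00613 with the block). For Krt85 the tips of 1 stage thus spanned a wider range than the stages of any 1 tip. Krt35 moved least, at 0.32 ± 0.21 (adjusted p = 0.229, and 0.00386 with the block).

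**Figure D3:**
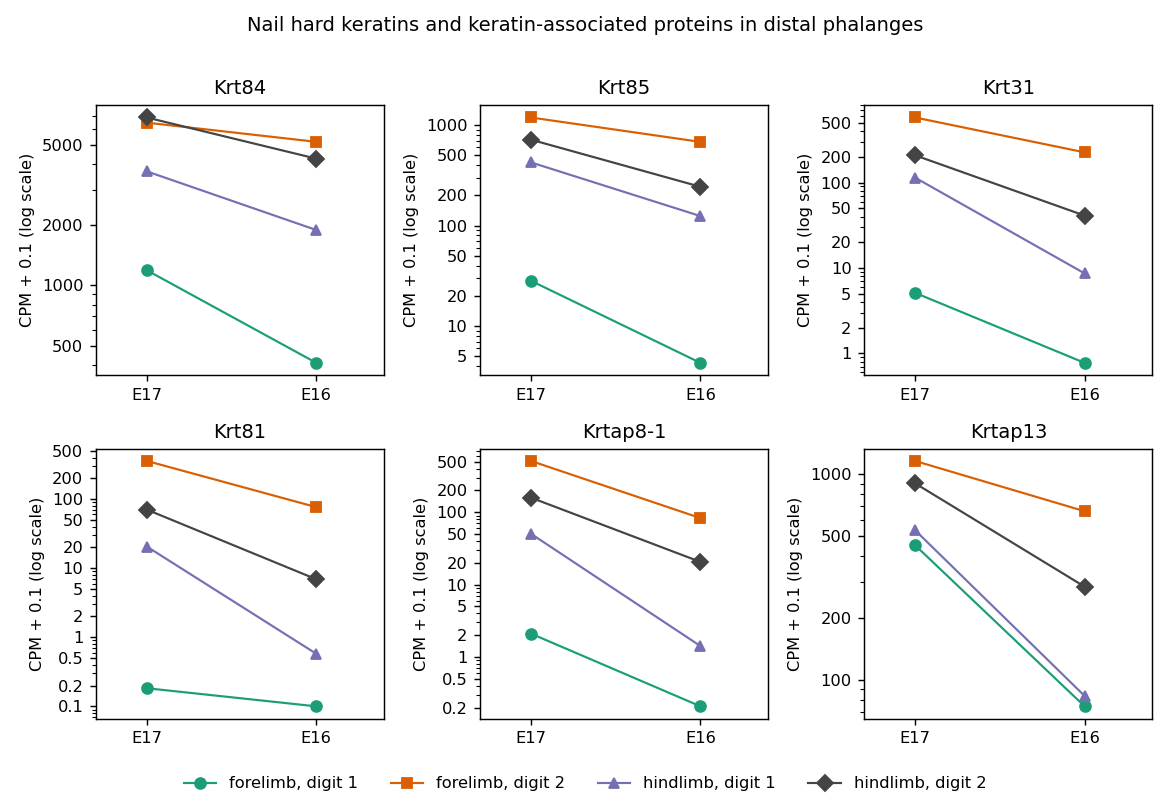
CPM plus 0.1 on a log axis of Krt84, Krt85, Krt31, Krt81, Krtap8-1 and Krtap13 in the 8 distal libraries, E17 at the left and E16 at the right; each line joins the 2 libraries of 1 limb and digit. Every line is higher at E17, and the forelimb digit 2 line of Krt31 (578 CPM at E17 and 226 CPM at E16) lies far above that of forelimb digit 1 (5.02 CPM at E17 and 0.674 CPM at E16).

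Several other hard keratins were highest in forelimb digit 2. Krt34, a type I hard keratin, had 15.4, 184, 12.3 and 35.2 CPM at E17, against 3.68, 42.5, 1.22 and 3.97 CPM at E16 (2.65 ± 0.40, adjusted p = 4.54e-04). Krt32 was low in every distal library but did not overlap, with 2.29, 5.09, 5.24 and 3.78 CPM at E17, against 0.620, 1.24, 1.996 and 1.60 CPM at E16 (1.65 ± 0.33, adjusted p = 0.00222). It was not confined to the tip, since the 6 middle and proximal libraries at E16 held 1161 counts of Krt32, against 414 in the 4 distal ones. Krt33b had 1.45, 318, 18.2 and 72.3 CPM at E17, against 0.351, 85.4, 0.116 and 4.97 CPM at E16 (3.36 ± 1.09, adjusted p = 0.0262), and Krt86 had 0.111, 144, 1.35 and 17.6 CPM at E17, against 0, 24.3, 0.129 and 1.29 CPM at E16 (3.01 ± 0.92, adjusted p = 0.0201). The E17 library of forelimb digit 2 was the highest for Krt34, Krt33b and Krt86, and the E16 library of the same digit was the highest of its stage. Over the alternatives the log2 fold change ranged from 2.17 to 5.38 for Krt33b and from 2.23 to 4.79 for Krt86. Without that E17 library 2 of the 13 hard keratins were called (adjusted p of 0.00268 to 0.608), and the calls of Krt33b (adjusted p = 0.0968) and Krt86 (0.236) were lost. Krt33b was also not called without the E16 library of forelimb digit 1 (0.0602), hindlimb digit 1 (0.0755) or hindlimb digit 2 (0.0764), and Krt86 without that of hindlimb digit 2 (0.0770) or by DESeq2 (0.0817). With stage as the only term 1 of the 13 was called, Krt32, and Krt34 was not (adjusted p = 0.157). Without the forelimb digit 1 pair, an alternative chosen after the data were seen, all 13 were called (adjusted p of 2.12e-05 to 0.0232). Since Krt81, Krt83 and Krt86, and likewise Krt31, Krt33a, Krt33b and Krt34, have near-identical sequences, the split of reads among them is uncertain.

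Keratin-associated proteins fill the matrix between hard keratin filaments. Krtap13 had 451, 1159, 533 and 902 CPM at E17, against 74.1, 659.7, 83.2 and 283 CPM at E16 (1.91 ± 0.32, adjusted p = 9.08e-04). It was also counted in the middle and proximal phalanges, which averaged 519 ± 207 CPM at E17 and 64.2 ± 30.3 CPM at E16 (SD, n = 6 each). Krtap8-1 had 2.004, 512, 50.4 and 159 CPM at E17, against 0.108, 82.9, 1.31 and 20.5 CPM at E16 (3.62 ± 1.01, adjusted p = 0.0131), and its call was lost without the E17 library of forelimb digit 2 (adjusted p = 0.0987). Krtap3-2 (2.36 ± 0.39, adjusted p = 8.44e-04) and Krtap3-3 (2.62 ± 0.66, adjusted p = 0.00812) were called whichever single library was left out. With stage as the only term none of the 7 was called (adjusted p of 0.103 to 0.311). The 28 untested members were higher at E17 in 28 of 28 cases in forelimb digit 2 and in 24 of 28 in hindlimb digit 2, with the other 4 equal there. In digit 1 most had no count at either stage, with 2 higher, 2 lower and 24 equal in the forelimb and 11 higher and 17 equal in the hindlimb. All 28 were highest in the E17 library of forelimb digit 2, 16 reached 10 CPM there and 2 reached it in the E16 library of that digit. Their summed level was 0.346, 880.1, 3.46 and 69.2 CPM at E17, against 0.324, 72.3, 0.580 and 4.43 CPM at E16, and 25 of the 28 had no count in both E16 digit 1 libraries.

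Promoters of 4 nail genes are shown beside those of the cornified envelope, again 200 bases before the start from RefSeq's GRCm38.p6 tables, because Hoxc13, the homeobox factor required for hard keratins in hair and nail, has a group motif that can be searched. Capitals mark that motif (CTCNTAAA) or a TATA box (TATAAA), on either strand.
Krt84 (chr15:101532821-101533020, minus strand): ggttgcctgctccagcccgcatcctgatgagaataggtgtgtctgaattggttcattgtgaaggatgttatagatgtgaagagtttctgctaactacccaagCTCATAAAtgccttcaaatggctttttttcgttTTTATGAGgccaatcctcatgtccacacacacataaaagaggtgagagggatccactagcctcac
Krt32 (chr11:100088270-100088469, minus strand): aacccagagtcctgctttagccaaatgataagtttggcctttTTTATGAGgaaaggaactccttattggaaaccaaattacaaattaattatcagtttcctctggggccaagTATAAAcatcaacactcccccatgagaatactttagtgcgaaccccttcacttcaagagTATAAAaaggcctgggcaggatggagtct
Krt33b (chr11:100029869-100030068, minus strand): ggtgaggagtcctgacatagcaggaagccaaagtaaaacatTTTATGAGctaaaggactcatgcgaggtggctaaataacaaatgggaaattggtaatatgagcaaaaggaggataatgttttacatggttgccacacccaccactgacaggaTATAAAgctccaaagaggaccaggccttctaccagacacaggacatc
Krtap11-1 (chr16:89571184-89571383, minus strand): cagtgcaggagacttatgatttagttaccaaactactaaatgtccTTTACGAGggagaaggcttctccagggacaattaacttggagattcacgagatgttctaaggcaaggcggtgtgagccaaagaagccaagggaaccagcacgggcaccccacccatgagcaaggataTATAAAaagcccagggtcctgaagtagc
The CTCNTAAA motif lay in 4 of the 7 hard keratin promoters in the tables (Krt32, Krt33b, Krt82 and Krt84), in 5 of 40 keratin-associated protein promoters and in 2.59% of all promoters. Krt84 holds 2 matches, at 98 and 65 bases before the start, on opposite strands. In Krt32 and Krt33b the match lies at nearly the same distance, 158 and 159 bases before the start. None of the 7 hard keratin promoters held TGANTCA, the motif found in 11 of 41 cornified envelope promoters. It lay in 4 of 40 keratin-associated protein promoters and in 6.36% of all promoters, and 7 promoters are too few to tell none from that share. TATAAA lay in 38 of the 47 promoters of hard keratins and keratin-associated proteins.

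Regulators of the nail matrix moved in both directions. Of 22 tested regulators 3 rose and 7 fell, with a median of -0.21. Over all tested genes 24.8% rose and 26.8% fell, so the share of regulators that fell was near that of all genes. Hoxc13 had 54.5, 149, 111.8 and 173 CPM at E17, against 74.0, 199.8, 141 and 208 CPM at E16, which missed the threshold (-0.37 ± 0.15, adjusted p = 0.0600) and was called lower with the pairs as a block (-0.37, adjusted p = 0.00132). Foxn1, a forkhead factor of nail and hair differentiation, had 25.7 to 67.3 CPM at E17, against 27.2 to 53.5 CPM at E16 (0.21 ± 0.12, adjusted p = 0.172), and it was called higher without the E17 library of forelimb digit 1 (0.34, adjusted p = 0.0163). Lef1, the nuclear partner of beta-catenin in the matrix, fell, with 32.1, 41.2, 41.5 and 40.1 CPM at E17, against 66.0, 59.5, 78.4 and 78.9 CPM at E16 (-0.86 ± 0.09, adjusted p = 7.96e-05). The homeobox gene Msx1 had 134, 278, 267 and 347 CPM at E17, against 297, 411, 493 and 669 CPM at E16 (-0.88 ± 0.11, adjusted p = 1.50e-04), and Msx2 fell by 0.60 ± 0.07 (adjusted p = 1.23e-04, and 0.0705 with stage alone). Wnt10b, a Wnt ligand of skin appendages, rose, with 15.97 to 57.3 CPM at E17, against 6.94 to 32.1 CPM at E16 (0.93 ± 0.093, adjusted p = 6.60e-05), and that call too was lost in the fit with stage alone (adjusted p = 0.172).

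Genes of the digit tip mesenchyme fell as a group. Of 20 tested, 15 fell and 0 rose, with a median of -0.67. Dach1, a transcriptional cofactor of distal limb cells, had 34.9, 31.6, 39.99 and 32.8 CPM at E17, against 101, 76.98, 111 and 87.1 CPM at E16 (-1.42 ± 0.067, adjusted p = 2.02e-06). Wnt5a, the ligand that drives distal outgrowth, had 255, 385, 394 and 449 CPM at E17, against 524, 714, 799.8 and 798 CPM at E16 (-0.95 ± 0.095, adjusted p = 6.60e-05). The LIM homeobox genes fell too. Lmx1b, which gives dorsal identity and is required for the nail, had 17.4, 21.6, 27.7 and 27.6 CPM at E17, against 42.7, 38.1, 65.8 and 54.7 CPM at E16 (-1.09 ± 0.098, adjusted p = 4.46e-05), and Lhx2 (-0.99 ± 0.079, adjusted p = 2.59e-05) and Lhx9 (-1.10 ± 0.13) were lower in 4 of 4 pairs. En1, the ventral counterpart of Lmx1b in the limb ectoderm, had 49.7 to 60.9 CPM at E17, against 90.9 to 108 CPM at E16 (-0.78 ± 0.09, adjusted p = 1.19e-04). No member of the list is confined to the mesenchyme of the tip, and Msx2, Dlx5 and En1 are also made in epithelium.

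The HoxA and HoxD genes at the 5-prime end of their clusters pattern the most distal limb. Of 11 tested, 6 fell and 1 rose, with a median of -0.65. Hoxd13 had 45.6, 75.9, 98.5 and 70.3 CPM at E17, against 81.0, 158, 173 and 126 CPM at E16 (-0.90 ± 0.22, adjusted p = 0.00726), and Hoxa13 had 18.9, 21.2, 31.0 and 25.5 CPM at E17, against 37.3, 26.2, 60.6 and 52.8 CPM at E16 (-0.83 ± 0.12, adjusted p = 3.68e-04). E17 was lower in each pair, and the stages overlapped across digits. Hoxa10 (-0.68 ± 0.065, adjusted p = 5.59e-05) and Hoxd11 (-0.65 ± 0.15, adjusted p = 0.00561) also fell, the last with its call lost in the fit with stage alone (adjusted p = 0.540) and in the fit of all 20 libraries (0.0678). Evx1, the homeobox gene beside the HoxA cluster and 1 of the 12 largest decreases, had 1.16, 3.26, 3.93 and 4.89 CPM at E17, against 6.202, 6.29, 13.2 and 12.1 CPM at E16 (-1.56 ± 0.24, adjusted p = 5.53e-04), a call lost in the fit of all 20 libraries (adjusted p = 0.0915).

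Genes of the limb's signalling pathways, among them ligands and receptors as well as targets, fell more often than they rose at E17. The Wnt target Axin2 and the FGF feedback genes Spry1, Spry2, Spry4 and Dusp6 missed the threshold, as given below. In Hedgehog signalling, 8 of 9 genes fell and 0 rose (median -0.59). Ptch1, at once the receptor and a target of the pathway, had 54.9, 139.8, 138 and 162 CPM at E17, against 166, 307, 298 and 335 CPM at E16 (-1.20 ± 0.17, adjusted p = 3.61e-04). Its transcription factors Gli1 (-0.96 ± 0.11, adjusted p = 1.21e-04) and Gli3 (-1.07 ± 0.12, adjusted p = 1.23e-04) and the signal transducer Smo (-0.46 ± 0.074, adjusted p = 6.91e-04) did not overlap between stages. Ihh, the cartilage ligand of this pathway, fell in the same libraries, as given with the skeleton, and its part in this list was not tested.

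The other pathways moved less. In canonical Wnt signalling 6 of 11 genes fell and 0 rose (median -0.37), among them the feedback inhibitors Nkd1 (-0.48 ± 0.082, adjusted p = 0.00103), Znrf3 (-0.47 ± 0.078, adjusted p = 8.43e-04) and Dkk1 (-0.55 ± 0.15), while Axin2, a widely used target, had 76.8 to 90.1 CPM at E17, against 71.8 to 117 CPM at E16 (-0.17 ± 0.096, adjusted p = 0.174). The call of Dkk1 was lost in the fit with stage alone (adjusted p = 0.257). In the BMP list 7 of 11 fell and 1 rose (median -0.43), led by the inhibitory Smad7 (-0.98 ± 0.074, adjusted p = 2.02e-05) and Smad6 (-0.76 ± 0.099, adjusted p = 2.20e-04) and the extracellular modulator Bmper (-1.01 ± 0.14, adjusted p = 2.73e-04). In the FGF list 5 of 11 fell and 0 rose (median -0.20), with the receptor Fgfr1 (-0.54 ± 0.086, adjusted p = 6.46e-04), the negative regulators Spred1 (-0.68 ± 0.072, adjusted p = 8.61e-05) and Spred2 (-0.32 ± 0.075) and the ETS factor Etv1 (-0.48 ± 0.12, a call lost with stage alone at an adjusted p of 0.134). The feedback genes Spry1, Spry2, Spry4 and Dusp6 of that list missed the threshold, with log2 fold changes of -0.25 to 0.028, and Spry1 and Spry4 were called lower without the E16 library of forelimb digit 2 (adjusted p = 0.0471 and 0.0407). In the Notch list 8 of 12 fell and 0 rose (median -0.40), namely the ligand Jag1 (-0.67 ± 0.063, adjusted p = 5.24e-05), the receptors Notch2 (-0.57 ± 0.11, adjusted p = 0.00203), Notch1 (-0.42 ± 0.087) and Notch3 (-0.38 ± 0.085), and the targets Hes1 (-0.61 ± 0.091, adjusted p = 4.37e-04) and Hey1 (-0.43 ± 0.086) among them. Only the call of Hey1 among these Notch genes was lost in the fit with stage alone (adjusted p = 0.0819).

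Cartilage genes of the tip fell as a group. Of 17 tested cartilage genes 12 fell and 0 rose, with a median of -0.96, and the list's share of the counts was 0.0318% to 0.0469% at E17 and 0.0613% to 0.120% at E16. Col2a1, the main collagen of cartilage, had 49.8, 87.8, 119 and 116 CPM at E17, against 158, 186, 438 and 441 CPM at E16 (-1.63 ± 0.16, adjusted p = 5.47e-05). Col9a1, which coats its fibrils, had 20.9, 21.3, 35.3 and 33.4 CPM at E17, against 52.8, 46.3, 105 and 118 CPM at E16 (-1.47 ± 0.11, adjusted p = 1.70e-05). Sox9, the transcription factor that drives these genes, had 29.7, 26.1, 31.1 and 34.1 CPM at E17, against 68.9, 47.0, 101 and 91.4 CPM at E16 (-1.30 ± 0.13, adjusted p = 6.51e-05). All 3 genes were lower in every E17 library than in any E16 library. Matn3, a matrilin of growth cartilage, overlapped between stages, with 1.13 to 6.65 CPM at E17, against 6.61 to 20.9 CPM at E16 (-1.91 ± 0.19, adjusted p = 6.60e-05). Aggrecan, Acan, fell by 0.99 ± 0.18 (adjusted p = 0.00128).

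Growth plate genes moved in both directions. Of 16 tested, 7 fell and 5 rose (median 0.12). Ihh, the ligand made by prehypertrophic chondrocytes, had 0.760, 2.57, 2.47 and 2.22 CPM at E17, against 2.103, 7.36, 11.6 and 18.3 CPM at E16 (-2.04 ± 0.35, adjusted p = 0.00104), and its call was lost in the fit of all 20 libraries (adjusted p = 0.0723). Enpp1, which makes the mineralisation inhibitor pyrophosphate, had 28.5 to 42.7 CPM at E17, against 63.7 to 75.6 CPM at E16 (-0.95 ± 0.074, adjusted p = 2.44e-05). The osteoblast determinants Runx2 (-1.06 ± 0.12, adjusted p = 1.18e-04) and Sp7 (-0.98 ± 0.12, adjusted p = 1.43e-04) fell as well, without overlap. Other genes of this list rose. Ibsp, bone sialoprotein, had 40.2, 73.4, 25.7 and 22.5 CPM at E17, against 6.82, 24.0, 1.98 and 4.13 CPM at E16 (2.55 ± 0.32, adjusted p = 1.98e-04), and Spp1, osteopontin, had 22.5, 21.7, 9.40 and 6.69 CPM at E17, against 5.14, 5.02, 1.67 and 2.53 CPM at E16 (2.03 ± 0.17, adjusted p = 3.57e-05). Mmp13, the collagenase of terminal chondrocytes, gained 1.53 ± 0.27, and Col10a1, the collagen of hypertrophic cartilage, gained 1.27 ± 0.24 (adjusted p = 0.00123 and 0.00173), each higher in 4 of 4 pairs.

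**Figure D4:**
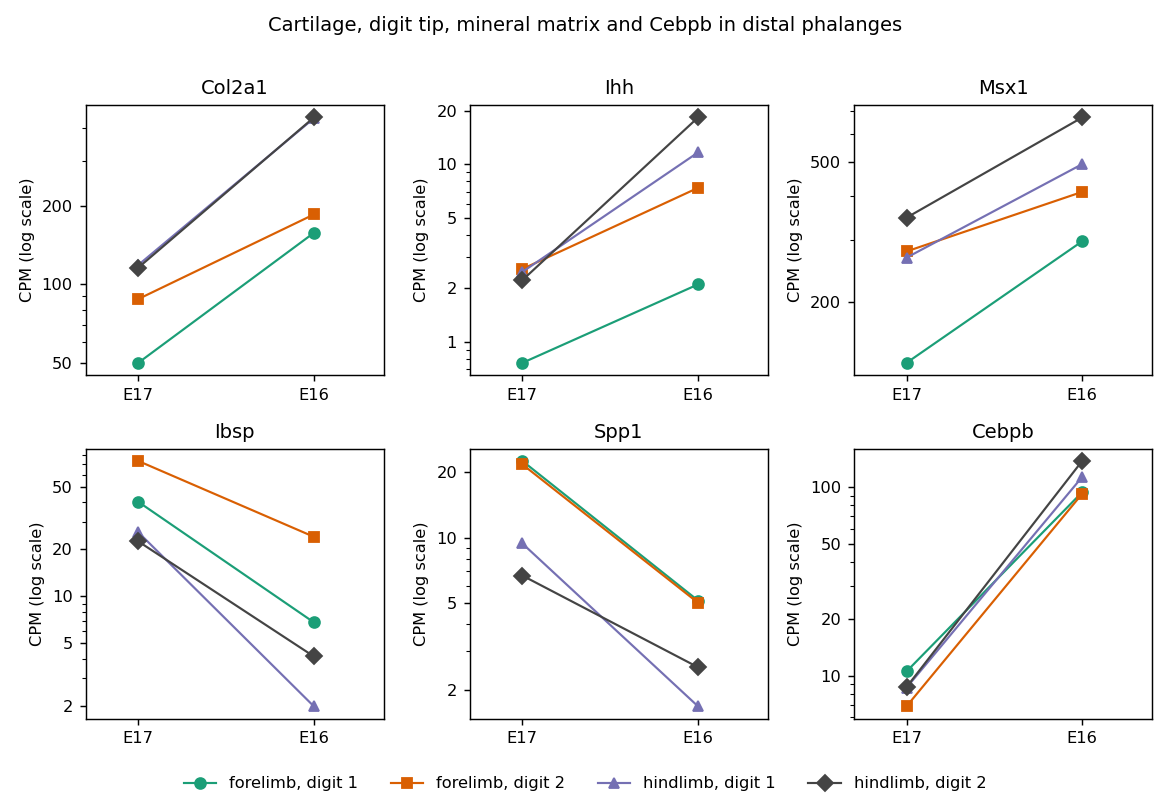
CPM on a log axis of Col2a1, Ihh, Msx1, Ibsp, Spp1 and Cebpb in the 8 distal libraries, E17 at the left and E16 at the right; each line joins the 2 libraries of 1 limb and digit. Col2a1 (-1.63), Ihh (-2.04), Msx1 (-0.88) and Cebpb (-3.65) are lower at E17, and Ibsp (2.55) and Spp1 (2.03) are higher.

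The list of bone-forming cells gave a mixed picture, with 2 of 11 genes higher and 3 lower (median -0.021). Smpd3, a sphingomyelinase needed for mineralisation, had 139, 188, 103 and 169 CPM at E17, against 26.2, 108, 31.5 and 80.9 CPM at E16 (1.48 ± 0.21, adjusted p = 3.86e-04), and Sparc, osteonectin, gained 0.48 ± 0.069 (adjusted p = 3.55e-04). In the middle and proximal phalanges Smpd3 averaged only 46.2 CPM at E17 and 4.44 CPM at E16. The list's share of counts was larger there, at 1.28% and 1.47%, against 0.642% and 0.742% in the distal phalanges. Which cells carried the rise of Smpd3 was not tested. Dlx5, a homeobox regulator of osteoblasts, fell (-0.65 ± 0.067, adjusted p = 7.59e-05). Col1a1, the chain shared by bone, dermis and tendon, had 2097 to 3473 CPM at E17, against 2584 to 4181 CPM at E16 (-0.27 ± 0.061, adjusted p = 0.00447), a call lost in the fit with stage alone (adjusted p = 0.278). Among 6 tested osteoclast genes, Acp5, the tartrate-resistant phosphatase, rose (16.9 to 23.8 CPM at E17, against 9.12 to 12.8 CPM at E16; 0.87 ± 0.11, adjusted p = 1.97e-04), and Nfatc1, which is also made outside osteoclasts, fell (-0.83 ± 0.089, adjusted p = 8.99e-05). Ctsk, cathepsin K, gained 0.43 ± 0.12 (adjusted p = 0.0166), a call lost without the E17 library of forelimb digit 1 (0.0578) or hindlimb digit 2 (0.0650), without the E16 library of forelimb digit 2 (0.0604) or hindlimb digit 1 (0.0614), and in the fit with stage alone (0.132).

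In dermis and tendon, directions were mixed. Of 14 dermal genes 3 rose and 5 fell (median 0.04). Dpt, the matrix protein dermatopontin, had 52.8, 43.1, 31.2 and 31.1 CPM at E17, against 21.6, 11.7, 10.3 and 3.63 CPM at E16 (1.94 ± 0.24, adjusted p = 1.60e-04). Twist1, a factor of immature mesenchyme, had 86.5, 95.1, 132 and 130.4 CPM at E17, against 170.4, 156, 272 and 239 CPM at E16 (-0.90 ± 0.074, adjusted p = 2.89e-05). Pdgfra (-0.58 ± 0.10, adjusted p = 0.00105) and Col6a3 (-0.47 ± 0.085, adjusted p = 0.00134) fell, while Col3a1, the fetal fibrillar collagen, had 1811 to 2283 CPM at E17, against 1878 to 2206 CPM at E16 (0.023 ± 0.07, adjusted p = 0.804). Of 12 tendon genes 5 rose and 3 fell (median 0.29). Thbs4, a thrombospondin of tendon, had 14.1, 5.30, 5.76 and 3.79 CPM at E17, against 4.34, 0.836, 0.889 and 0.813 CPM at E16 (2.23 ± 0.32, adjusted p = 3.92e-04), Kera, keratocan, gained 1.07 ± 0.15 (adjusted p = 2.71e-04) and Dcn, decorin, gained 0.50 ± 0.12 (adjusted p = 0.00508). Thbs4 passed the filter only with its E17 libraries, so its fold change and p depend on low E16 values. Tnc, tenascin C, fell by 0.58 ± 0.11 (adjusted p = 0.00165). The calls of Kera (0.0638) and Dcn (0.216) were lost in the fit with stage alone.

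All 16 tested skeletal muscle genes rose, with a median of 2.29, in a tissue where they are rare. Their share of the counts was 0.0229% to 0.0536% at E17 and 0.00484% to 0.0124% at E16. In 5 of the 6 middle and proximal libraries of each stage it was lower than in any distal library of that stage, at 0.00634% to 0.0138% at E17 and 0.00197% to 0.00420% at E16, while the proximal phalanx of forelimb digit 1 had 0.351% at E17 and 0.110% at E16. Mylpf, a fast myosin light chain, had 70.5, 34.4, 47.2 and 29.0 CPM at E17, against 10.9, 9.45, 6.16 and 7.53 CPM at E16 (2.36 ± 0.19, adjusted p = 2.44e-05). Myog, the factor of myoblast differentiation, had 12.2 to 25.7 CPM at E17, against 2.59 to 5.43 CPM at E16 (2.29 ± 0.19, adjusted p = 3.18e-05). Acta1 (2.28 ± 0.20, adjusted p = 3.86e-05) and Tnnc2 (3.01 ± 0.24, adjusted p = 2.54e-05), skeletal actin and fast troponin C, were likewise without overlap. How much neighbouring muscle entered each dissection was not tested.

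Most blood and immune genes rose. The erythroid list took 2.45% to 3.38% of the counts at E17 and 1.03% to 1.35% at E16, with 8 of 9 genes higher (median 1.27). The adult alpha-globin Hba-a1 had 8809.6, 8877, 10624 and 7656 CPM at E17, against 2754, 3695, 3856 and 3770.4 CPM at E16 (1.36 ± 0.12, adjusted p = 4.73e-05). Hba-a2 (1.46 ± 0.12, adjusted p = 2.65e-05) and the adult beta-globin Hbb-bs (1.27 ± 0.12, adjusted p = 5.81e-05) moved alike, and reads of these near-identical copies cannot be assigned with certainty. Alas2, the first enzyme of erythroid haem synthesis, gained 1.30 ± 0.12 (adjusted p = 5.43e-05). The embryonic globin Hbb-y ran the other way, with 4.34, 7.98, 6.83 and 4.99 CPM at E17, against 14.7, 16.2, 15.6 and 15.9 CPM at E16 (-1.37 ± 0.19, adjusted p = 2.66e-04). It was the only one of the 9 tested erythroid genes that fell, and its E17 libraries lay below all E16 libraries.

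Mast cell genes rose in a similar way. Of 8 tested genes of mast cells and granulocytes 6 rose and 1 fell (median 1.80). The chymase Cma1 had 65.7, 26.5, 37.7 and 18.1 CPM at E17, against 15.3, 5.82, 8.28 and 5.97 CPM at E16 (2.004 ± 0.15, adjusted p = 2.02e-05). Hdc, which makes histamine, had 29.7 to 74.8 CPM at E17, against 8.89 to 15.4 CPM at E16 (2.02 ± 0.16, adjusted p = 2.17e-05), the tryptase Tpsb2 had 11.6 to 45.6 CPM at E17, against 2.06 to 8.02 CPM at E16 (2.46 ± 0.21, adjusted p = 3.35e-05), and the carboxypeptidase Cpa3 overlapped between stages (1.68 ± 0.19, adjusted p = 1.22e-04). The receptor Kit, shared with melanocytes, fell (-0.47 ± 0.10, adjusted p = 0.00381). Of 12 macrophage genes 9 rose and 0 fell (median 0.78). Lyve1, a hyaluronan receptor shared by resident macrophages and lymphatic vessels, had 7.26, 2.83, 3.59 and 2.47 CPM at E17, against 1.59, 0.601, 0.605 and 0.474 CPM at E16 (2.33 ± 0.27, adjusted p = 1.18e-04). Lyve1 passed the filter only with its E17 libraries, so its fold change and p depend on low E16 values. The lysozyme Lyz2 (1.204 ± 0.11, adjusted p = 5.43e-05), the complement chain C1qa (0.98 ± 0.14, adjusted p = 2.96e-04) and the receptor Csf1r (0.55 ± 0.11, adjusted p = 0.00204) had no overlap, while Cx3cr1 had 11.8 to 14.4 CPM at E17, against 10.9 to 16.1 CPM at E16 (0.0089 ± 0.12, adjusted p = 0.958).

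Mural cells of vessels changed in both directions, with 6 of 9 genes higher and 2 lower (median 0.76). The pericyte receptor Pdgfrb had 88.5, 106, 85.6 and 103 CPM at E17, against 164, 151, 182 and 179 CPM at E16 (-0.82 ± 0.09, adjusted p = 9.76e-05), and the proteoglycan Cspg4 fell by 0.68 ± 0.11 (adjusted p = 6.41e-04). Acta2, smooth muscle actin, had 79.0, 45.0, 79.8 and 48.9 CPM at E17, against 34.5, 23.7, 41.9 and 33.4 CPM at E16 (0.90 ± 0.10, adjusted p = 1.04e-04). Rgs5 gained 1.46 ± 0.30 (adjusted p = 0.00266), a call lost in the fit with stage alone (adjusted p = 0.164). Other cell types moved little as lists: the median was 0.13 for endothelium (3 of 13 higher, 2 lower), 0.075 for the joint interzone (3 of 12 higher, 2 lower), and 0.21 for Schwann cells and nerve (1 of 10 higher, 1 lower). Foxc1, a forkhead factor of sweat glands and mesenchyme, had 9.80, 8.55, 12.8 and 14.6 CPM at E17, against 25.7, 19.4, 53.0 and 34.5 CPM at E16 (-1.47 ± 0.14, adjusted p = 5.52e-05). Fabp4, a fatty-acid carrier of fat cells and capillaries, had 1.94 to 4.23 CPM at E17, against 0.0653 to 0.688 CPM at E16 (3.37 ± 0.41, adjusted p = 1.64e-04). All E16 values of Fabp4 lay below 1 CPM, so it passed the filter only through its E17 libraries, where it was high. Its fold change and p depend on E16 values near the floor, and it was tested in 14 of the 20 alternatives.

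Proliferation genes were lower on balance. Of 21 tested, 9 fell and 1 rose, with a median of -0.19. Mki67, the nuclear antigen of cycling cells, had 129, 159, 203 and 179.6 CPM at E17, against 278, 354, 476 and 301 CPM at E16 (-1.08 ± 0.15, adjusted p = 2.68e-04), and Top2a, the topoisomerase that untangles replicated DNA, had 177, 207, 277 and 256 CPM at E17, against 359, 446, 516 and 427 CPM at E16 (-0.95 ± 0.10, adjusted p = 9.99e-05). The checkpoint kinase Bub1 fell by 0.79 ± 0.11 (adjusted p = 2.63e-04) and Rrm2, which supplies deoxynucleotides, fell by 0.38 ± 0.077 (adjusted p = 0.00259, and 0.0592 with stage alone). The mitotic kinase gene Cdk1 had 57.9 to 77.1 CPM at E17, against 61.0 to 89.5 CPM at E16 (-0.12 ± 0.066, adjusted p = 0.148), and the replication helicase gene Mcm3 had 92.8 to 116 CPM at E17, against 82.2 to 129 CPM at E16 (0.0094 ± 0.079, adjusted p = 0.929), and both missed the threshold.

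Immediate early and heat shock genes, which can change during dissection, are given for that reason. Of 15 tested, 9 rose and 1 fell (median 0.46). The phosphatase gene Dusp1 had 55.4, 47.4, 40.9 and 45.8 CPM at E17, against 25.6, 21.5, 18.5 and 21.1 CPM at E16 (1.13 ± 0.095, adjusted p = 3.33e-05), and the AP-1 gene Junb had 114 to 156 CPM at E17, against 48.2 to 77.9 CPM at E16 (1.28 ± 0.13, adjusted p = 6.45e-05). The near-identical chaperone genes Hspa1b (0.69 ± 0.087, adjusted p = 1.79e-04) and Hspa1a (0.67 ± 0.094, adjusted p = 3.36e-04) rose too. Their part in the changes above was not tested. Mitochondrial transcripts were listed under different names in the 2 tables, and of 13 tested 2 rose and 6 fell (median -0.35). ATP8 rose (0.99 ± 0.15, adjusted p = 3.98e-04), while ND4 (-0.57 ± 0.12, adjusted p = 0.00252), ND1 (-0.57 ± 0.12, adjusted p = 0.00339) and ND6 (-0.67 ± 0.15, adjusted p = 0.00419) fell, and ATP8 overlaps ATP6 on the same transcript.

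Among ranked genes outside the lists, the largest increase was in AY036118, with 1893, 3172, 1314 and 1127 CPM at E17, against 2.78, 1.41, 3.40 and 3.35 CPM at E16 (9.34 ± 0.46, adjusted p = 2.12e-06). It is a locus of 1 exon, and its symbol aside, no function is assumed here. A further 2 symbols were found in 1 table only and were not tested, LOC118568312 at 1929 ± 872.1 CPM (SD, n = 4) in the E17 table and Gm26917 at 1757 ± 315.9 CPM (SD, n = 4) in the E16 table. The level of Gm26917 at E16 was close to the mean of AY036118 at E17 (1876 CPM). Whether the same reads were counted under different symbols in the 2 tables was not tested, so the change of AY036118 cannot be told apart from a difference between the tables. Beside Cebpb, the 12 largest decreases held Ihh, Matn3, Col2a1 and Evx1, described above, and 7 other genes. H1f10, a linker histone, had 17.3, 20.2, 30.3 and 27.3 CPM at E17, against 72.3, 75.8, 152 and 154 CPM at E16 (-2.20 ± 0.10, adjusted p = 2.02e-06). Zbed6, a transcription factor encoded within an intron of another gene, had 54.2 to 64.8 CPM at E17, against 208 to 270.3 CPM at E16 (-1.999 ± 0.10, adjusted p = 2.39e-06), and reads of that intron could be counted with it. The others were Runx3, a runt factor of maturing chondrocytes (-1.79 ± 0.15), the MAX partner Mxd4 (-1.73 ± 0.082), the membrane protein gene Tmem158 (-1.67 ± 0.32), Sox11, a factor of immature cells (-1.59 ± 0.092), and the netrin receptor gene Unc5c (-1.58 ± 0.086). Cebpb, Zbed6, Tmem158 and Sox11 each have 1 exon. Over all 342 tested genes with 1 annotated exon, 87 rose and 95 fell with a median of -0.053, against 3303 and 3577 of 13298 genes with more exons and a median of -0.016.

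The change in the distal phalanges was then set against that in the 12 middle and proximal phalanges, in a fit of all 20 libraries that tests the difference between the changes. Of 14862 genes 44 differed (0.296%), 28 with a higher change in the distal phalanges (0.188%) and 16 with a lower one (0.108%). In 16 of the 44 both changes were upward, in 16 the distal change was upward and the other downward, in 6 the reverse held, and in 6 both were downward. The test was sensitive to single libraries. Leaving out 1 of the 20 gave 3 to 60 calls, and with the limb-and-digit pairs as a block there were 169. There were 3, 18 and 6 calls without the E17 distal library of forelimb digit 2, hindlimb digit 1 and hindlimb digit 2, and 26, 16 and 7 without the E16 distal library of forelimb digit 1, forelimb digit 2 and hindlimb digit 2. Without an E17 library of the other phalanges there were 6 and 24 (forelimb digit 2, middle and proximal), 21 (hindlimb digit 1, proximal) and 16 and 8 (hindlimb digit 2, middle and proximal). Without an E16 library of those phalanges there were 16 (forelimb digit 2, proximal) and 6 and 8 (hindlimb digit 2, middle and proximal). Ebf3, Ebf2 and Fzd10 were called in each of 29 alternatives, and each of the other genes named below lost its call in at least 1 of them. Without the E17 distal library of forelimb digit 2, those other genes had adjusted p of 0.0717 or more.

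**Figure D5:**
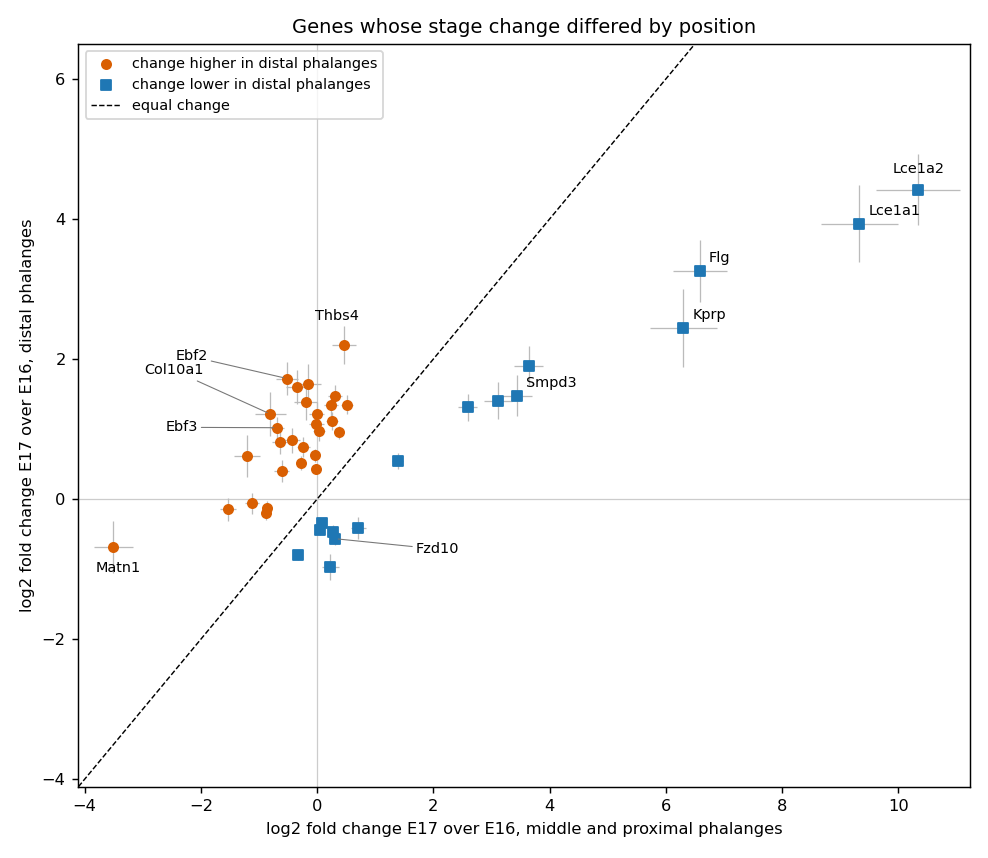
Stage log2 fold change (E17 over E16) in the distal phalanges (vertical) against that in the middle and proximal phalanges (horizontal) for the 44 genes whose changes differed, from the fit of all 20 libraries; bars are standard errors, orange circles the 28 genes with the higher change in the distal phalanges, blue squares the 16 with the lower one, and the dashed line marks equal change. Lce1a2 (-5.92) and Lce1a1 (-5.40) lie far below the line, and Matn1 (2.83) and Ebf2 (2.24) above it.

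The early B-cell factors Ebf3 and Ebf2, transcription factors of limb and dermal mesenchyme, moved in opposite directions in the 2 regions. Ebf3 had 24.0, 17.9, 29.5 and 23.1 CPM at E17 in the distal phalanges, against 12.7, 10.3, 18.0 and 6.98 CPM at E16. In the middle and proximal phalanges it averaged 60.2 ± 13.5 CPM at E17 and 98.7 ± 30.1 CPM at E16 (SD, n = 6 each). The distal change was 1.02 ± 0.16 and the other -0.69 ± 0.12 on the log2 scale, a difference of 1.71 ± 0.20 (adjusted p = 0.00243). Distal levels stayed below those of the other phalanges at both stages. Ebf2 had 5.97, 5.33, 10.2 and 6.09 CPM at E17 in the distal phalanges, against 3.88, 1.80, 1.62 and 1.48 CPM at E16, and averaged 21.0 ± 11.1 CPM at E17 and 32.9 ± 20.5 CPM at E16 elsewhere, a difference in change of 2.24 ± 0.30 (adjusted p = 0.00797). Ebf1 differed in the same direction (1.01 ± 0.20, adjusted p = 0.0495), with its call lost in 19 of the 29 alternatives (adjusted p up to 0.139).

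Fzd10, a Wnt receptor of the Frizzled family, showed the opposite pattern. It had 109, 112.1, 91.9 and 101 CPM at E17 in the distal phalanges, against 148, 149, 138 and 178 CPM at E16, and averaged 95.03 ± 7.25 CPM at E17 and 77.7 ± 13.7 CPM at E16 elsewhere. The log2 change was -0.56 ± 0.093 in the distal libraries and 0.30 ± 0.076 in the others, a difference of -0.87 ± 0.12 (adjusted p = 0.00839). The Wnt feedback inhibitor Nkd1 differed the same way (-0.75 ± 0.14, adjusted p = 0.0347), its call lost in 13 alternatives (adjusted p up to 0.108).

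Cornified envelope genes with a called difference changed less in the distal phalanges, where their E16 levels were higher than elsewhere. Flg averaged 76.1 ± 64.4 CPM at E17 and 0.880 ± 1.15 CPM at E16 in the middle and proximal phalanges, and its change was 3.26 ± 0.44 in the distal libraries and 6.59 ± 0.47 elsewhere, a difference of -3.33 ± 0.61 (adjusted p = 0.0347). Lce1a1 averaged 52.4 ± 18.9 CPM at E17 and 0.0857 ± 0.160 CPM at E16 elsewhere, and differed by -5.40 ± 0.92 (adjusted p = 0.0336). Lce1a2 (-5.92 ± 1.11) and Kprp (-3.86 ± 0.78), a keratinocyte proline-rich protein, followed. The size of these differences rests on few counts, since the 6 E16 libraries of the other phalanges held 411 counts of Flg, 40 of Lce1a1, 8 of Lce1a2 and 402 of Kprp, against 36374, 24896, 11272 and 23438 in the 6 at E17. Over the alternatives the difference ranged from -3.76 to -2.82 for Flg, -8.24 to -4.90 for Lce1a1, -9.38 to -5.34 for Lce1a2 and -5.28 to -3.40 for Kprp. The calls of Flg, Lce1a1, Lce1a2 and Kprp were lost in 13, 9, 13 and 21 of the 29 alternatives, with adjusted p up to 0.129, 0.0774, 0.210 and 0.133. These 4 were the called members of the 38 tested genes of the list.

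The other named genes came from several lists and from none. Matn1, a cartilage matrilin, differed by 2.83 ± 0.50 (adjusted p = 0.0336), with a change of -0.68 ± 0.38 in the distal phalanges and -3.51 ± 0.34 in the others. Col10a1 (2.02 ± 0.41), Thbs4 (1.74 ± 0.33) and Osr1 (1.27 ± 0.22), an odd-skipped factor of joint and dermal mesenchyme, differed in that direction, as did the proteoglycan gene Spock1 (1.39 ± 0.21), the tissue transglutaminase gene Tgm2 (1.46 ± 0.23), the mesenchymal repressor Hic1 (1.23 ± 0.22) and the secreted Wnt modulator Sfrp2 (0.73 ± 0.14). Tmem229b (1.10 ± 0.19), the adhesion gene Kirrel3 (1.06 ± 0.19), the caveolar gene Cavin2 (0.93 ± 0.17), the cytoskeletal gene Gas2 (0.79 ± 0.13) and the scavenger receptor gene Stab1 (0.67 ± 0.12) did so too. The globin Hba-a1 rose by 1.35 ± 0.13 in the distal phalanges and by 0.52 ± 0.11 elsewhere, a difference of 0.83 ± 0.17 (adjusted p = 0.0495). Smpd3, Thy1, Slc46a2, Cdc14b and Serinc5 differed the other way (-1.96 ± 0.38, -1.12 ± 0.21, -0.84 ± 0.15, -0.50 ± 0.094 and -0.42 ± 0.08). Of all these, Spock1 lost its call in 3 alternatives and Tgm2 in 4, and the rest in 8 to 21.

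Within the distal phalanges, the difference of E17 from E16 was also compared between limbs and between digits. For hindlimb against forelimb, edgeR called 0 of 14032 genes, 1599 had an unadjusted p under 0.05, and DESeq2 called 204 (32 with the higher change in the hindlimb and 172 with the lower). For digit 1 against digit 2, edgeR called 0, 611 had an unadjusted p under 0.05, and DESeq2 called 39. With the pairs as a block 4 genes were called for digit and 0 for limb. These fits have 3 residual degrees of freedom, and a missed threshold does not show that the changes were equal.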

How the data were processed

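Messenger RNA was measured in 20 pools of mouse phalanges, of which the 8 distal ones enter the main comparison and all 20 the comparison with other phalanges. The deposited values are whole-number read counts per gene symbol, 1 table per stage. The submitters' processing notes name the GRCm39 build, HISAT2 2.2.1 and StringTie 2.1.7, while the counting step, annotation and filters are not given in the sources used here. Per the labels' protocols, no strand-specific kit is named, so reads of a gene and of an overlapping or antisense gene cannot be separated.

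The tables were joined by symbol, 23932 written alike and 58 through synonyms of RefSeq's GRCm38.p6 table, giving 23990 genes with 99.03% to 99.48% of the counts of each library. Loci with an assembler's name made up 0.0187% of E16 counts but 1.08% of E17 counts, and the 13 mitochondrial genes stood under such names in the E17 table. Deposited TMM values, scaled within each stage, were not used. Counts were tested with edgeR 4.0.16 in R 4.3.3 (quasi-likelihood F test, two-sided, Benjamini-Hochberg adjustment over all tested genes, threshold 0.05), with TMM factors over all 20 libraries after removing genes that reached 1 CPM in fewer than 4 libraries. The stage fit had terms for stage, limb and digit, 4 residual degrees of freedom and a common biological coefficient of variation of 15.7%. The fit of all 20 libraries had 12 residual degrees of freedom, and the limb and digit fits had 3 each. Python 3.11.15 with pandas 2.3.3 was used for joins and tables, and the scripts were checked on simulated counts.

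Members of the lists and the lists themselves were chosen with earlier results of these data known. Any list member could be named, with the 4 of smallest adjusted p among them where a list had as many called, except 1 list member that is not reported here. Outside the lists, the 12 highest and 12 lowest fold changes and the 10 smallest p in each direction of the interaction tests were named. These were ranked among called genes averaging at least 5 CPM and, for stage, changed the same way in 4 of 4 pairs. Predicted-gene symbols (Gm, LOC and Rik names) and assembler loci were left out of the ranking. Ebf2, which averaged under 5 CPM, and Ebf1 were named beside Ebf3 outside this rule.

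Libraries of the same limb and digit deviated together from their stage means (correlations over genes of 0.646, 0.612, 0.511 and 0.445, each the highest of its E17 library), so the pairs were taken to hold and are reported as a block where that changes a call. Alternatives were other size factors, filters, DESeq2 1.42.0, the block, stage as the only term, and each library left out.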

Additional observations from a re-analysis of the deposited data

Results flagged for a closer look

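A single library stood far from the other 3 of its stage in 24 of 432 groups of 4 examined for named genes. The measure was the gap to its nearest neighbour over the group's range. The cut-off flags about 1 in 20 groups if values are normal and groups independent. These CPM values are skewed and related genes can share reads, so the count cannot be judged against that rate. The flags are listed and not read as a trait of a digit. Of these, 12 concerned forelimb digit 2, 10 forelimb digit 1 and 2 hindlimb digit 1. At E17 the forelimb digit 2 library was the high one for Krt34 (184 CPM) and Krt86 (144 CPM). At E16 the same digit was the high one for Krt34 (42.5 CPM), Krt86 (24.3), Krt33b (85.4), Krt81 (76.5), Krt33a (34.5), Krt83 (70.4), Krtap11-1 (24.2), Rptn (154 CPM), Lce1d (51.6) and Spink6 (4.70).

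The flags of forelimb digit 1 concerned other genes. At E17 it was high for Lor (5525 CPM) and Kit (21.7) and low for Lef1 (32.1). At E16 it was high for Bmper (55.5), Etv1 (38.5), Thbs4 (4.34), Ebf2 (3.88) and Lyve1 (1.59) and low for the globins Hba-a1 (2754 CPM) and Hba-a2 (1937 CPM). The hindlimb digit 1 library was high for Ebf2 at E17 (10.2 CPM) and low for Tnnc2 at E16 (1.67 CPM).

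The stage change differed between the distal phalanges and the middle and proximal ones, by the interaction term in edgeR, for 28 named genes. The difference on the log2 scale was above 0 for Matn1 (2.83), Ebf2 (2.24), Col10a1 (2.02), Thbs4 (1.74), Ebf3 (1.71), Tgm2 (1.46), Spock1 (1.39), Osr1 (1.27), Hic1 (1.23), Tmem229b (1.10), Kirrel3 (1.06), Ebf1 (1.01), Cavin2 (0.93), Hba-a1 (0.83), Gas2 (0.79), Sfrp2 (0.73) and Stab1 (0.67). It was below 0 for Lce1a2 (-5.92), Lce1a1 (-5.40), Kprp (-3.86), Flg (-3.33), Smpd3 (-1.96), Thy1 (-1.12), Fzd10 (-0.87), Slc46a2 (-0.84), Nkd1 (-0.75), Cdc14b (-0.50) and Serinc5 (-0.42).

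Of the symbols found in 1 table only, LOC118568312 averaged 1929 CPM in the E17 table and Gm26917 averaged 1757 CPM in the E16 table.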

How the results depend on the processing

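The count of genes that differed between stages stayed within 1.5 times the main value under every alternative run, with 5623 calls with stage as the only term, 7488 by DESeq2 and 5930 to 7059 with 1 library left out, and no called gene changed direction. With the pairs as a replicate block 7313 genes were called, and beside the values given above the block changed no call of a named gene. Of 176 named called genes 165 were tested in all 20 alternatives, of which 136 kept their call in all and 158 in all except stage alone, and 7 of the 11 tested in fewer (14 to 19) kept theirs. Of 22 named genes that missed the threshold 14 were called in at least 1 alternative. Stage alone leaves the limb and digit differences in the error. The 44 calls of the comparison with the other phalanges became 203 by DESeq2 (43 of the 44 among them), 169 with the replicate block, 23 without a filter on low counts and 10 without the middle phalanges, and 3 (without E17 forelimb digit 2) to 60 (without E16 hindlimb digit 1) with 1 library left out. Between limbs, 0 calls became 204 by DESeq2 and 0 to 3 with 1 library left out. Between digits, 0 calls became 39 by DESeq2, 1 with a filter at 5 CPM, 4 with the replicate block, and 0 to 17 with 1 library left out, the 17 without E16 hindlimb digit 2. With 1 library left out, the share of the counts at E17 minus that at E16 ranged over 0.121 to 0.523 percentage points for nail hard keratins, -0.0613 to -0.0418 for cartilage, 2.40 to 3.21 for suprabasal genes and 1.36 to 1.67 for erythroid genes. The cause of these differences was not tested. Each distal library held at least 71233824 counts, and a single library stands for each stage, limb and digit. Embryos, pool size and count table cannot be told apart from stage.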

Other observations

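Genes with the smallest p in the comparisons of limbs and of digits were looked at after their values were seen, and no hypothesis was tested on them. Timm13, Tomm6, Cox8a and Uqcc2 encode proteins of mitochondrial import and respiration. Timm13 had 58.3, 59.3, 53.2 and 55.6 CPM at E17, against 19.3, 19.0, 32.4 and 35.6 CPM at E16. The E17 libraries were alike, and the E16 forelimb libraries lay below the E16 hindlimb libraries, so that the change in the hindlimb minus that in the forelimb was -0.94 ± 0.12 on the log2 scale (adjusted p = 0.318 by edgeR). The same difference was -0.79 for Tomm6, -0.92 for Cox8a and -1.02 for Uqcc2, none of which passed the adjustment. Rsc1a1 had 33.3, 28.5, 38.5 and 35.3 CPM at E17, against 40.2, 0.941, 36.6 and 0.0542 CPM at E16. Both E16 digit 2 libraries stood far below the other 6, and the change in digit 1 minus that in digit 2 was -6.12 ± 0.76 (adjusted p = 0.0934 by edgeR).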
